A study of Mus musculus with 6 samples.

Results

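The resting state described here is that of mouse small-intestinal organoids that received only the solvent. It covers 3 of the 6 libraries of the series, all those labelled as control, and the other 3, from organoids given arachidonic acid, enter no value. The organoids were grown in Matrigel with a commercial growth medium from crypts of C57BL/6 wt mice, isolated from the proximal part of the small intestine, were passaged every 3 days and were used at passage 3 to 5. The vehicle was 0.1% ethanol, given for 3 days before passaging, and total RNA was taken on day 3 after it. Nothing in the labels says whether the 3 libraries came from separate cultures or animals, so their spread may be technical. The values are FPKM, the fragments of a gene divided by its length and by all fragments counted, and the step between the lowest values implied 37.4, 36.6 and 38.5 M fragments (M, 1e+06) in vehicle replicates 1, 2 and 3.

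The lining of the small intestine is a single sheet of epithelium that is renewed from stem cells at the base of the crypts. Wnt and Notch signals keep those cells dividing, and their daughters become absorptive enterocytes or secretory cells, namely Paneth cells, goblet cells, hormone-secreting enteroendocrine cells and chemosensory tuft cells. Organoids grown from crypts consist of this epithelium without the mesenchyme, vessels, nerves and leukocytes of the tissue, and they are supplied with niche factors through the medium. Genes are called present here when they reached at least 1 FPKM in all 3 libraries, and near absent when they were under 0.1 FPKM in all 3.

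Of 53953 rows in the table, 12274 were present (22.7%), 34178 were near absent, and 28913 of the latter were listed at 0 in all libraries. Among the 21942 protein-coding genes, 10669 were present (48.6%). Counts of list members present are to be read beside that share. The distribution of levels had its largest expressed group between 10 and 100 FPKM, with 6726 rows, of which 6370 were protein-coding. Another 4657 rows lay between 1 and 10 FPKM, 1250 between 100 and 1000 and 101 at or above 1000. Those 101 genes held 30.4% of the summed mean FPKM, and the 1250 below them another 36.9%.

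**Figure D1:**
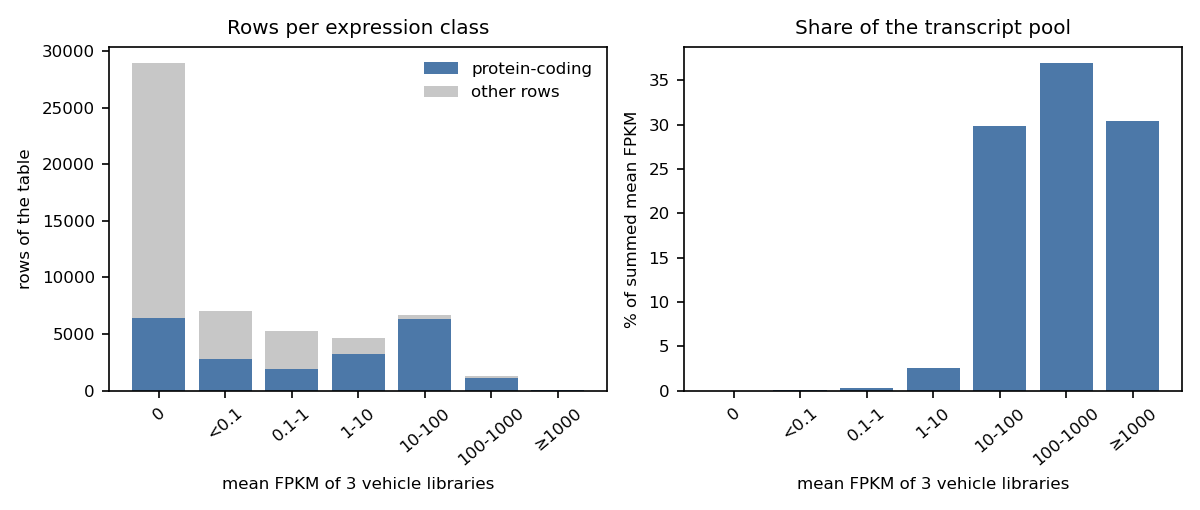
Rows of the expression table in each class of mean FPKM over the 3 vehicle libraries (left, protein-coding genes in blue and other rows in grey) and the percent of the summed mean FPKM that each class held (right). Most rows were listed at 0, while the 101 rows at or above 1000 FPKM held 30.4% of the sum.

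The 3 libraries ranked genes alike, with Spearman correlations of 0.994 for each pair across the 12734 genes whose mean reached 1 FPKM, which are not independent of each other. Replicate 2 stood apart in 4 features. The row Gm23935, annotated as a microRNA gene, read 10389, 84.0 and 9469 FPKM in replicates 1, 2 and 3. CT010467.1, annotated as ribosomal RNA, read 571, 5.50 and 420 FPKM, Gm24270 read 452, 12.5 and 374, and Lars2, the mitochondrial leucyl-tRNA synthetase, 138, 21.1 and 128. These 4 rows form a list of ribosomal RNA-like features. Whether the reads of Lars2 came from the transcript of the enzyme was not tested. Each of the 4 was lowest in replicate 2. The share of FPKM held by noncoding or unannotated rows was 2.69%, 1.31% and 2.52%. Their share of fragments differed less, at 1.31%, 1.17% and 1.19%. Gm23935 and Gm24270 are 57 bases long, and FPKM divide by length. With replicate 2 left out, the number of rows whose mean reached 1 FPKM was 12711 in place of 12734. Y-linked Eif2s3y (74.4, 72.9 and 70.2 FPKM) and near-absent Xist (0.0643, 0.0744 and 0.0457 FPKM) were alike in all 3.

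The most abundant transcripts were mainly those of protein synthesis. Eef1a1, the elongation factor that brings aminoacyl-tRNA to the ribosome, was the highest of all at 15721, 15008 and 15014 FPKM. Of the 30 highest genes, 17 encoded ribosomal proteins, led by Rplp0 (5235 ± 361 FPKM, SD, n = 3), Rps14, Rplp1 (4950 ± 473) and Rps2 (4155 ± 285). Rps14 was less even, at 6422, 4946 and 3841 FPKM. Another 4 of the 30 were mitochondrially encoded subunits of the respiratory chain, mt-Co1 of complex IV at 9573, 11769 and 8723 FPKM, mt-Cytb of complex III at 4790, 5500 and 4492, and mt-Nd1 and mt-Nd2 of complex I. All 4 were highest in replicate 2 and lowest in replicate 3.

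Among the other ribosomal protein genes of the 30 were Rpl28, Rps18, Rpl18, Rps9, Rps3a1, Rps6, Rpl4, Rps15, Rpl31, Rpl41, Fau and Rpl6, with means from 3382 FPKM for Rpl28 to 2422 for Rpl6. Eef2, the translocation factor, stood at 4104 ± 167 FPKM. The 5 other protein-coding genes were the chaperone Hsp90ab1 (3883 ± 200), the metal-binding metallothionein Mt1 (3863 ± 261), Ptma, Tpt1 and Atp5b, the beta subunit of mitochondrial ATP synthase (3012 ± 157). The processed pseudogene Rpl34-ps1 was the only one of the 30 in its class, and near-identical copies of ribosomal protein genes can share reads. Gm23935, low in replicate 2 as given above, ranked 3rd by mean and was the only noncoding row of the 30. Ribosomal proteins held 19.0%, 17.8% and 17.4% of the FPKM of the 3 libraries, and 60 of the 100 highest genes encoded them.

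The 10 highest genes held 8.51% ± 0.410 of the FPKM of a library, the 100 highest 30.3% ± 0.940 and the 1000 highest 62.3% ± 0.734 (SD, n = 3). Counted as fragments, which do not divide by gene length, the same numbers of genes held 6.56%, 21.4% and 51.7%. Ribosomal protein genes, whose transcripts are short, held 11.5%, 10.4% and 10.2% of fragments, less than their share of FPKM.

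Genes of intestinal function entered below this layer. The list of most abundant other protein-coding genes held the lectins Lgals4 (1513 ± 59.0) and Lgals2 (1403 ± 56.4). Defa24, an alpha-defensin that Paneth cells secrete, ranked 83rd, and the goblet and Paneth cell peptide Spink4 ranked 117th. Pigr, the receptor that carries IgA across the epithelium, read 750, 904 and 867 FPKM. Pigr was highest in replicate 2, and Defa24 and Spink4 were lowest in replicate 3. Lgals4, Lgals2 and Pigr were chosen for mention after their values were seen.

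Adhesion and keratin genes were set beside the epithelial label as a description, since the lists were chosen with earlier results of these data known. All 16 members of the pan-epithelial list were present, with a median of 188 FPKM. Epcam, the epithelial adhesion molecule, read 534, 541 and 570 FPKM, the tight junction gene Cldn7 651, 627 and 663, and E-cadherin (Cdh1) 282, 299 and 302. The keratins of simple epithelium led their family, with Krt8 at 759 ± 24.8, Krt19 at 610 ± 3.44 and Krt18 at 272 ± 17.5 FPKM. These 3 held 95.3% of the summed FPKM of 49 keratin genes, of which 7 were present and 36 near absent. Claudins were likewise few, with 8 of 23 present and Cldn7, Cldn3 and pore-forming Cldn2 (190, 198 and 246 FPKM) holding 82.6% of the family.

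**Figure D2:**
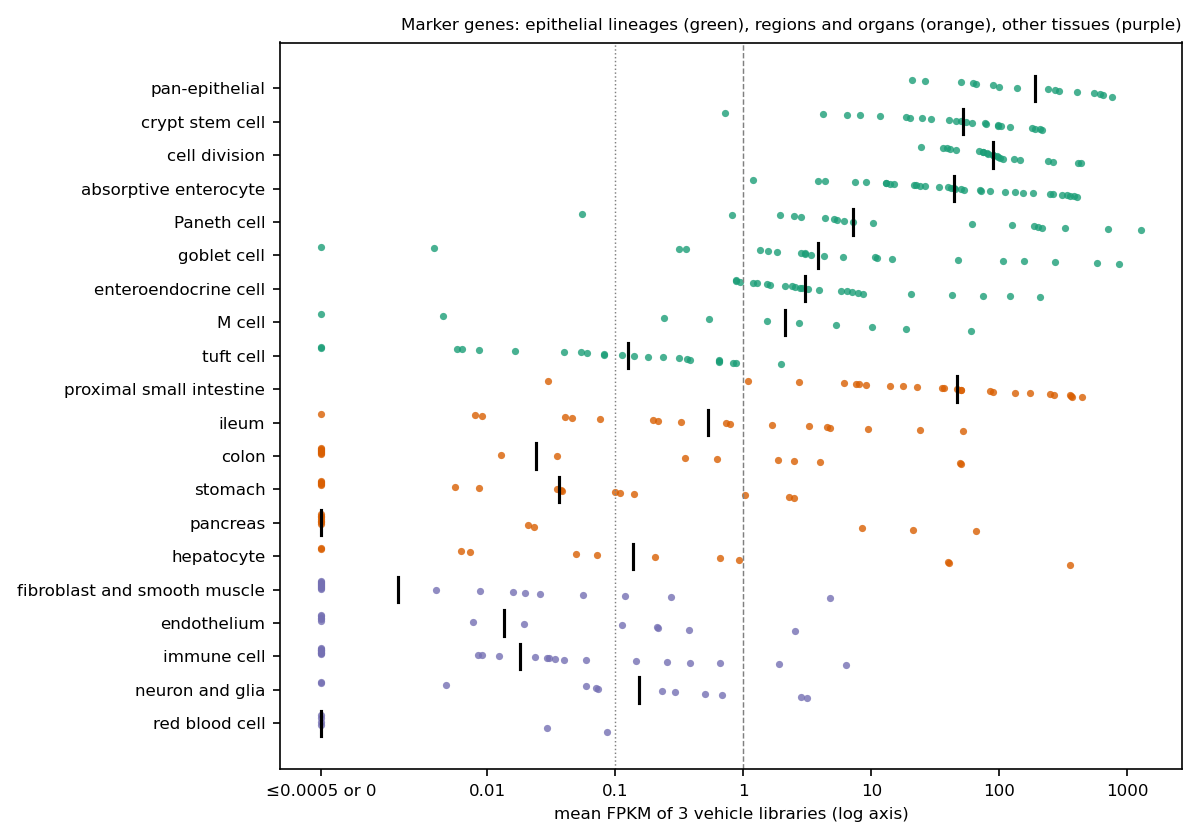
Mean FPKM over the 3 vehicle libraries (log axis) of every matched member of 20 marker lists, 1 point per gene, with the list median as a black bar, a dashed line at 1 FPKM and a dotted line at 0.1. Epithelial lists other than that of tuft cells lie mainly to the right of 1 FPKM, and lists of other tissues lie to its left with few exceptions.

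Crypt base and dividing cells were well represented. Of 24 stem cell genes 23 were present, where 48.6% of all protein-coding genes were, and Tnfrsf19 (1.17, 0.704 and 0.269 FPKM) was the exception. The Wnt target Lgr5, the receptor for R-spondins that defines crypt base stem cells, read 73.2, 90.1 and 73.2 FPKM. The secreted Smoc2 (215, 205 and 224), the chloride cotransporter Slc12a2 (198, 201 and 220), Olfm4 (226, 200 and 145) and Cdca7 (176, 176 and 185) were the highest of the list. Ascl2, the transcription factor of stem cell fate, was lower, at 12.9, 9.65 and 12.3 FPKM. All 22 genes of cell division were present with a median of 89.1 FPKM, from the chromatin protein Hmgb2 (452, 421 and 421), the replication clamp Pcna (401, 387 and 435), topoisomerase Top2a (239, 261 and 281) and Stmn1 (238, 235 and 242) down to Cenpf (20.1, 24.8 and 28.0). The proliferation marker Mki67 stood at 67.5, 74.0 and 79.8 FPKM and the replicative helicase subunit Mcm2 at 107, 104 and 109. In RNA from whole organoids, fewer cells of a type and less RNA per cell cannot be told apart.

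Absorptive enterocyte genes were nearly complete. Of 34 members 33 were present, with a median of 44.4 FPKM, and the peptide transporter Slc15a1 (1.07, 1.53 and 0.972 FPKM) missed 1 FPKM in 1 library. Villin (Vil1), which bundles actin in the brush border, was the highest at 377, 427 and 417 FPKM, followed by the fatty acid carriers Fabp2 (364, 424 and 354) and Fabp1 (313, 412 and 339) and by Tm4sf5 (344, 331 and 344). Brush border enzymes differed widely in level: sucrase-isomaltase (Sis) read 218, 301 and 262 FPKM, alkaline phosphatase (Alpi) 21.9, 27.5 and 29.0, and lactase (Lct) 7.67, 11.2 and 8.53. Vil1, Fabp2, Fabp1, Sis and Lct were all highest in replicate 2.

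The villus carries enterocytes that change their programme from base to tip, and a list for each zone was counted. Presence in RNA from whole organoids does not place a gene in a zone. Some members, Slc5a1 and Apoa4 among them, are also on the absorptive enterocyte list. Of the base zone 7 of 8 members were present, led by the chemokine Ccl25 (222 ± 16.8 FPKM), the antibacterial Lypd8 (153) and the inflammasome sensor Nlrp6 (78.5), while Gsdmc4 was near absent. The antibacterial lectin Reg3b read 26.1, 24.2 and 15.8 FPKM and its relative Reg3g 6.87, 7.77 and 5.44. The mid zone had 7 of 8 members present, with the glucose transporter Slc5a1 at 59.5, 80.7 and 71.3 FPKM and the amino acid transporters Slc7a7, Slc7a8 and Slc7a9 at means of 51.8, 24.8 and 18.2. Of the tip zone 8 of 10 were present, led by the cell cycle inhibitor Cdkn1a (85.8, 87.3 and 69.9) and the lipoprotein gene Apoa4 (44.6, 58.9 and 46.5). The purine enzyme Ada stood at 12.7, 13.1 and 10.3 FPKM, but Nt5e, which makes adenosine at the tip, was low at 0.346, 0.198 and 0.0887.

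Paneth cell genes ranged widely in level. Of 19 members 17 were present, with a median of 7.19 FPKM over the list, and 9 of them reached 5 FPKM in all libraries. Among the highest, Defa24 read 1568, 1305 and 955 FPKM, the lectin Itln1 780, 742 and 599, Cd24a 339, 318 and 315, Defa17 227, 236 and 185 and lysozyme (Lyz1) 245, 202 and 154. Defa24 alone held 72.8% of the summed FPKM of 22 alpha-defensin genes, of which 12 were present. Alpha-defensin genes are near-identical copies, so the split of reads among them is uncertain. Defa24, Itln1, Cd24a and Lyz1 were each highest in replicate 1 and lowest in replicate 3.

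Among goblet cell genes, secreted peptides stood above mucin. Of 22 members 17 were present, with a median of 3.8 FPKM over the list. Spink4 read 969, 916 and 704 FPKM, the trefoil peptide Tff3 627, 615 and 498, the Fc-binding mucus protein Fcgbp 261, 301 and 255, and Agr2, the disulphide isomerase of mucin folding, 161, 165 and 139. Muc2, which encodes the gel-forming mucin of the intestine, was at 1.15, 2.45 and 0.424 FPKM, Clca1 at 0.389, 0.433 and 0.240, and Retnlb was listed at 0 in all 3. The transmembrane mucin Muc13 (122 ± 12.4 FPKM) held 93.1% of the summed FPKM of 12 mucin genes, with Muc4 (3.94) and Muc3a (1.78) next.

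Of 24 enteroendocrine genes 19 were present, with a median of 3.04 FPKM over the list. The granule proteins Chgb (219, 212 and 192 FPKM) and Chga (73.0, 82.1 and 66.5), the secreted lectin Reg4 (136, 119 and 105) and the prohormone enzyme Cpe (52.0, 38.7 and 38.2) were highest. Neurog3, the transcription factor that starts this lineage, read 22.6, 20.2 and 18.1 FPKM, above its successor Neurod1 at 3.30, 2.75 and 2.60. FPKM divide by length, here matched by the mean over a gene's annotated transcripts, so levels of different genes compare only roughly. Of 18 hormone genes 9 were present (50%), close to the 48.6% of all protein-coding genes. Cholecystokinin (Cck) read 216, 172 and 172 FPKM, the incretins Gip 138, 162 and 114 and Gcg 54.1, 58.3 and 52.1, and Tac1, which encodes substance P, 38.5, 30.2 and 27.5. Somatostatin (Sst) stood at 14.9, 14 and 8.49 FPKM, whereas the distal hormones Pyy (0.266, 0.435 and 0.0516) and Insl5 (0.0472, 0.145 and 0) were low, and the neuropeptides Gal and Vip were listed at 0.

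Tuft cell genes were scarce. Only Il17rb, the receptor for interleukin-25, was present of 24 members (2.15, 1.82 and 1.88 FPKM), and the median of the list was 0.126 FPKM. The defining markers were low in every library: Dclk1 at 0.183, 0.148 and 0.206, the taste channel Trpm5 at 0.740, 1.24 and 0.664, and the lineage factor Pou2f3 at 0.637, 0.696 and 0.596. The list of M cells, which sample antigen, was mixed. Of 10 members 5 were present (50%, where 48.6% of all protein-coding genes were). Marcksl1 (60.3), Anxa5 (18.7) and Tnfrsf11a (10.1) were among them, which other epithelial cells also express. The chemokines Ccl9 (6.67, 5.67 and 3.44 FPKM) and Ccl20 (1.86, 2.92 and 3.42) were present too. The defining Gp2 was listed at 0 in 2 libraries and at 0.0135 FPKM in replicate 3, and Spib read 0.325, 0.203 and 0.193.

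**Figure D3:**
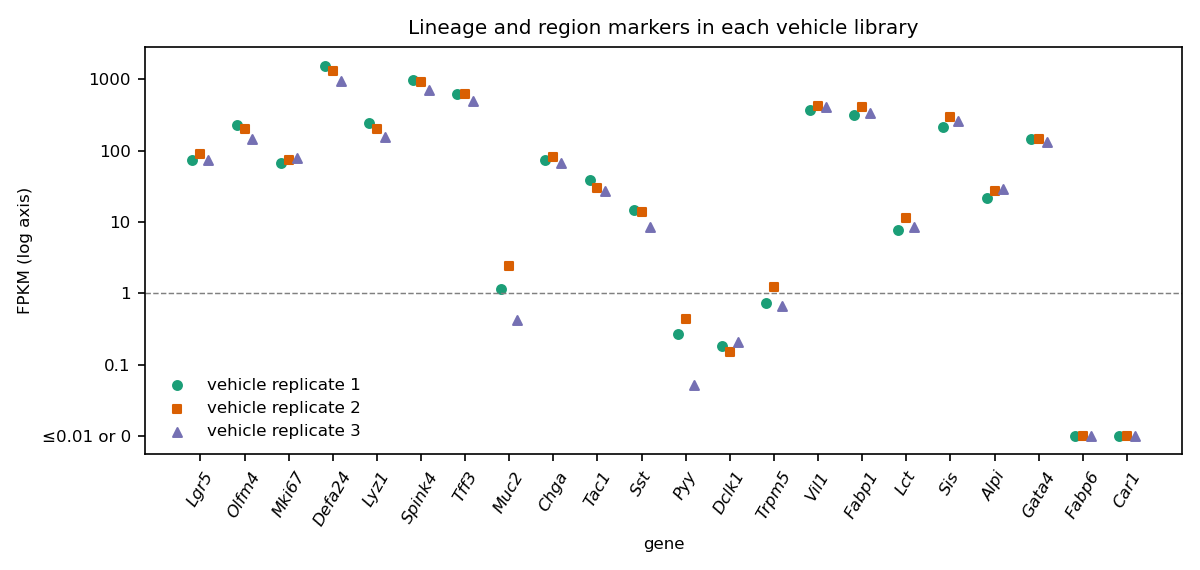
FPKM (log axis) of 22 lineage and region markers in each of the 3 vehicle libraries, with a dashed line at 1 FPKM and values at or under 0.01 drawn at the bottom. Stem, Paneth, goblet peptide, enteroendocrine and enterocyte markers lie above 1 FPKM, whereas Pyy, Dclk1, Fabp6 and Car1 lie below it in every library and Muc2 and Trpm5 straddle it.

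Cell types from outside the epithelium left little trace. Over the 5 lists of stromal, vessel, immune, neural and red blood cells, 6 of 72 genes were present and 48 were near absent, against 152 of 194 genes present over the epithelial lineage lists. The collagens Col1a2 and Col3a1 were listed at 0 and Col1a1 was at 0.0902, 0.0614 and 0.0146 FPKM. The pan-leukocyte gene Ptprc read 0.00921, 0 and 0.0179 FPKM, the endothelial genes Cdh5 and Kdr were listed at 0, and the globin genes Hba-a1, Hba-a2 and Hbb-bs were listed at 0. Globin genes are close copies, and since the counting of shared reads is not known, their zeros say little by themselves. The 6 present were the intermediate filament gene Vim (4.51, 5.66 and 4.13 FPKM), Lyve1 (1.88, 2.60 and 3.16), Kit (5.97, 7.35 and 5.81), Cd68 (2.14, 2.02 and 1.53), Ret (3.07, 3.29 and 3.00) and Tubb3 (2.65, 3.37 and 2.49). The summed FPKM of the 24 immune genes was 9.84, 11.3 and 8.67.

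Regional genes were set beside the proximal label as a description, since the lists were chosen with earlier results of these data known. Of 25 genes that are highest in duodenum and jejunum 23 were present, with a median of 47.0 FPKM, and Adh6a was near absent. The mitochondrial creatine kinase Ckmt1 (407, 464 and 442 FPKM), the fructokinase Khk (359, 399 and 340), Gstm3 (325, 339 and 431) and Fabp1 were the highest. Genes of duodenal iron uptake were included: the importer Slc11a2 read 72.3, 120 and 76.6 FPKM, the ferrireductase Cybrd1 6.70, 11.1 and 6.38, the exporter Slc40a1 6.64, 8.78 and 7.45 and the ferroxidase Heph 15.7, 18.9 and 18.7. All 4 were highest in replicate 2. Others at or above 5 FPKM included the retinol carrier Rbp2 (248), Acsl5 (267), Adh1 (175), Gsta1 (132), Cyp2d26 (84.4), Ms4a10 (49.7), Aldh1a1 (47.0), Creb3l3 (36.8), Leap2 (35.8), Cyp3a13 (22.8), Slc2a2 (14) and Xdh (6.12).

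Genes of the ileum were low where they serve bile acid handling. The ileal bile acid binding protein Fabp6 was listed at 0 in all libraries, the uptake transporter Slc10a2 read 0.135, 0.323 and 0.187 FPKM, the exporter subunits Slc51a and Slc51b 0.502, 0.821 and 0.859 and 1.09, 0.849 and 0.402, and the hormone Fgf15 0.0240, 0 and 0. Of 18 members 7 were present, of which Amn (52.9, 51.5 and 50.8 FPKM), the protease Mep1a (23.2, 24.1 and 24.4) and Clec2h (8.86, 10.7 and 8.89) passed 5 FPKM. Mep1a is also on the absorptive enterocyte list. The partner of Amn in vitamin B12 uptake, Cubn, was at 0.108, 0.0913 and 0.0273 FPKM.

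Colonic genes were split in the same manner. Of 16 members 5 were present, and the carbonic anhydrase Car1 and Hoxb13 were listed at 0. The chloride exchanger Slc26a3 (41.6, 51.6 and 53.0) and the water channel Aqp4 (48.1, 50.7 and 52.2) were the 2 above 5 FPKM. Of the aquaporins, Aqp1 (201 ± 7.95 FPKM) held 73.5%, followed by Aqp4 and Aqp11 (21.6 ± 0.935).

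Stomach genes were low, with Gkn1, Gkn2 and Muc5ac listed at 0 and Gkn3 (2.69, 2.40 and 2.39 FPKM) and Anxa10 (2.61, 2.55 and 1.61) the 2 of 16 present. Of 12 pancreas genes 3 were present: colipase (Clps) at 77.6, 68.0 and 51.9 FPKM, the chymotrypsinogen Ctrb1 at 19.4, 23.3 and 20.1 and the elastase Cela1 at 9.85, 6.65 and 8.70. The other 9, the elastase Cela2a, the carboxypeptidase Cpa1 and both insulin genes among them, were near absent. The 3 of 12 liver genes present were the urea cycle enzymes Cps1 (313, 353 and 393 FPKM) and Otc (37.0, 43.0 and 39.3) and the carrier Ttr (42.3, 43.7 and 35.8), while Alb read 1.04, 0.913 and 0.837 and Fgb and Fga were listed at 0. Cps1 and Otc form citrulline from ammonia in the small intestine as in the liver, and Arg1, which ends the liver cycle, was at 0.643, 0.720 and 0.594 FPKM.

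Transcription factors of the gut were led by Hnf4a, a nuclear receptor that drives enterocyte genes, at 463, 473 and 456 FPKM. The caudal factors that hold intestinal identity followed, Cdx1 at 248, 194 and 216 and Cdx2 at 113, 111 and 93.3 FPKM. Gata4, found in the proximal but not the distal small intestine, read 144, 146 and 132 FPKM and the Ets factor Ehf 121, 120 and 130. Of 32 factors 26 were present. The duodenal factor Pdx1 was at 9.07, 9.0 and 9.05 FPKM, whereas the foregut factor Sox2 was listed at 0 and the enterocyte factor Isx read 0, 0.0194 and 0. Prdm1, a factor of the immature gut, was at 0.423, 0.674 and 0.426 FPKM.

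Of 39 Hox genes, which record position along the body axis, none was present, 34 were near absent and 28 were listed at 0. The highest, Hoxa9, read 0.499, 0 and 0.380 FPKM. Among 48 nuclear receptors 32 were present, with Esrra, a regulator of mitochondrial genes (381, 337 and 327 FPKM), the vitamin D receptor Vdr (200, 218 and 227) and the thyroid hormone receptor Thra (149, 138 and 151) next to Hnf4a.

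Presence of niche genes differed by family. Of 23 Wnt and R-spondin ligands only Wnt3, the Wnt of Paneth cells, was present (3.00, 2.70 and 2.71 FPKM), and 16 were near absent, Rspo1 and Rspo2 at 0. Of 17 BMP and hedgehog ligands and antagonists 5 were present, with Ihh, which epithelium sends to mesenchyme, at 39.4, 37.2 and 36.0 FPKM and Bmp7 at 22.6, 21.3 and 20.9, and the antagonists Nog and Grem1 were listed at 0. Of 11 ligands of the EGF family 5 were present (45.5%, where 48.6% of all protein-coding genes were). Areg read 19.7, 24.7 and 15.3 FPKM, Btc 12.7, 12.4 and 13.1 and Tgfa 12.6, 11.3 and 12.6, while Egf itself read 0.650, 0.199 and 0.504. Of 9 Notch genes 7 were present, with the receptor Notch1 at 54.4, 53.4 and 49.4 FPKM and the ligands Jag2 at 24.9, 26.8 and 20.8 and Dll1 at 22.5, 21.7 and 23.1.

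Of 26 innate sensors and adaptors 11 were present (42.3%, where 48.6% of all protein-coding genes were). Tlr3, which binds double-stranded RNA, was the only one of 12 Toll-like receptors that was present (3.97, 5.62 and 5.81 FPKM). Tlr5 was at 0.476, 0.839 and 0.646 and Tlr4 at 0.0151, 0 and 0.0732. The Naip receptors, which detect bacterial proteins for the inflammasome, were higher, with Naip6 at 19.3, 22.5 and 21.1, Naip2 at 14.9, 14.6 and 15.1, Naip5 at 11.4, 13.1 and 12.4 and their partner Nlrc4 at 8.33, 8.64 and 9.78 FPKM, although Naip genes are close copies of each other. Of 10 genes of MHC class II presentation only H2-DMa was present (2.91, 2.56 and 3.60), while H2-Ab1 (1.13, 1.99 and 0.760) would count as present without replicate 3, and the regulator Ciita was at 0.0509, 0.0312 and 0.0346 FPKM. Of 37 interleukin genes 3 were present, Il17d (16.5 ± 2.88 FPKM), Il15 (6.77 ± 0.691) and Il18 (1.26 ± 0.356), and of 36 chemokine genes 7, with Ccl25, Ccl28 (41.3 ± 2.05) and Cx3cl1 (41.2 ± 4.61) the highest.

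Among metabolic families, members present ranged from 5 of 16 carbonic anhydrases to 18 of 22 glutathione transferases, where 48.6% of all protein-coding genes were present. Of 371 solute carriers 201 were present, the mitochondrial ADP/ATP carrier Slc25a5 (845 ± 48.6 FPKM) first, then the phosphate carrier Slc25a3 (487 ± 30.4) and Slc25a39 (384 ± 17.2). Of 94 cytochrome P450 genes 30 were present, and Cyp2c55 (473 ± 24.7), Cyp2c66 (179 ± 15.9) and Cyp2c65 (145 ± 9.56) held 45.7% of the family. Of 22 glutathione transferases 18 were present, with Gsto1 (491 ± 16.4) and Gsta4 (413 ± 23.0) ahead of Gstm3, as were 13 of 20 aldehyde dehydrogenases, with Aldh1b1 (580 ± 21.7), Aldh18a1 and Aldh9a1. Of 16 carbonic anhydrases Car9 (92.2, 132 and 110 FPKM), a cell surface enzyme, held 84.2%, and of 9 fatty acid binding proteins Fabp2 and Fabp1 were far above Fabp5 (28.9 ± 1.20). Calcium-binding S100a10 (266 ± 7.70) and S100g (184 ± 21.9), a vitamin D-dependent calcium carrier of the duodenum, led 16 S100 genes. Of 15 apolipoprotein genes 6 were present, Apoa1 (85.1 ± 18.7), Apoa4 and Apoc3 (44.1 ± 11.1) the highest.

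The remaining families are given by their leading members. Annexins, of which 9 of 11 were present, were led by Anxa4 (417 ± 16.0 FPKM), which held 63.9%, then Anxa2 and Anxa7, cathepsins by the lysosomal proteases Ctsb (240 ± 11.6), Ctsz and Ctsa, and glucuronosyltransferases, which conjugate drugs and bilirubin, by Ugt2b34 (136 ± 6.77), Ugt1a7c and Ugt2b35. Among integrins, the laminin receptor subunits Itgb1 (120 ± 8.75), Itga6 (109 ± 5.47) and Itga3 (33.7 ± 0.414) held 77.8%. Reg4 held 70.7% of the Reg proteins, ahead of Reg3b and Reg1.

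The lineages were not spread evenly over the 3 libraries. Members with a mean of at least 1 FPKM were compared by the library in which each was highest or lowest, and over all 12734 such rows 30.5%, 30.8% and 38.7% were highest in replicates 1, 2 and 3 and 38%, 30.5% and 31.6% were lowest. Of 17 Paneth cell genes 13 were highest in replicate 1 and 14 lowest in replicate 3, and their summed FPKM was 3665, 3248 and 2520. Of 18 goblet cell genes 12 were highest in replicate 1 and 15 lowest in replicate 3 (sums of 2250, 2218 and 1797), and of 21 enteroendocrine genes 20 were lowest in replicate 3 (sums of 575, 535 and 476). The secretory lists thus shared their low library.

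Absorptive genes ordered the libraries another way. Of 34 enterocyte genes 27 were highest in replicate 2 and 28 lowest in replicate 1, with sums of 3280, 3899 and 3566 FPKM, and of 24 proximal genes 21 were highest in replicate 2, some of them on both lists. Of 22 cell division genes 19 were highest in replicate 3 and 14 lowest in replicate 1, with sums of 2686, 2686 and 2899. The 24 stem cell genes summed to 1772, 1730 and 1729 FPKM, and of the 23 with a mean of at least 1 FPKM 9 were highest in replicate 1, 5 in replicate 2 and 9 in replicate 3. The 16 pan-epithelial genes summed to 4276, 4269 and 4434, and 11 of them were highest in replicate 3, as most division genes were. Median log2 ratios to the 3-library mean were -0.42 for Paneth genes in replicate 3, 0.16 for enterocyte genes in replicate 2 and 0.11 for division genes in replicate 3. SD over mean had a median of 25.0% for Paneth genes, 14.1% for enterocyte genes and 7.01% for division genes. Over all genes whose mean reached 1 FPKM it was 6.82%, close to that of the division genes.

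The members of a list are not replicates of each other, and the order of 3 libraries was not tested. Replicate 2, highest for enterocyte genes, was also the library low in the 4 features named above and the one in which mitochondrially encoded genes held 4.22% of FPKM, against 3.43% and 3.20%. Of 26 hypoxia-response and glycolysis genes, a list chosen after the values were seen that supports nothing by itself, 24 were highest in replicate 2 (sums of 6201, 7584 and 6362 FPKM). The part of these in the order was not tested.

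**Figure D4:**
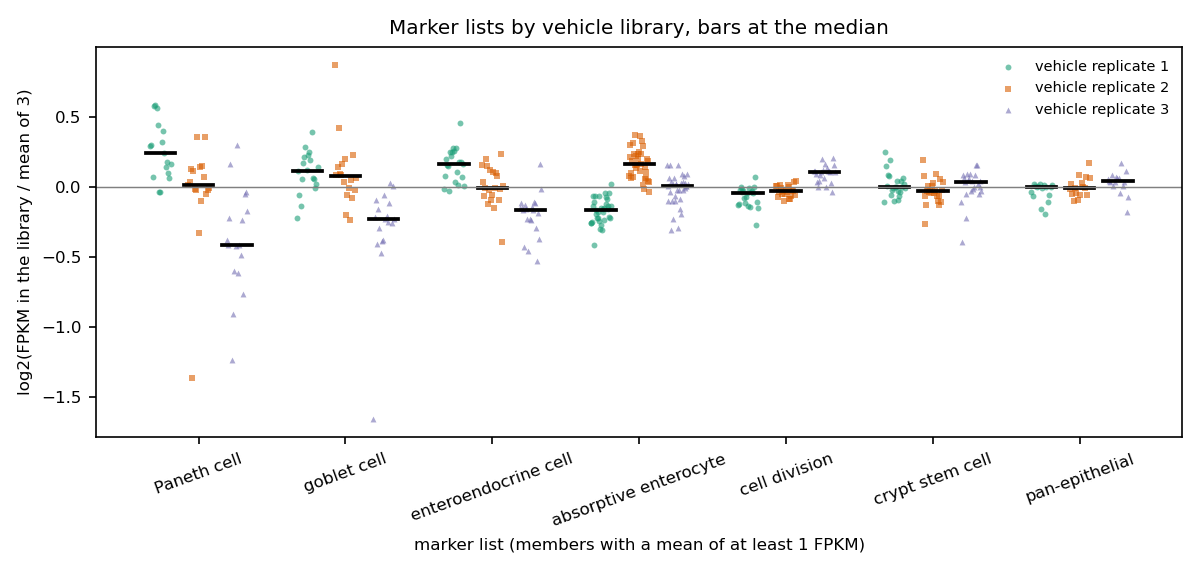
Log2 of each gene's FPKM in a vehicle library over its mean of the 3, for members of 7 lists with a mean of at least 1 FPKM, with the list median as a black bar. Paneth, goblet and enteroendocrine genes sit lowest in replicate 3, enterocyte genes highest in replicate 2 and lowest in replicate 1, and division genes highest in replicate 3.

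Promoters of the enterocyte and division lists were set side by side. Most members of each list shared their highest library, and a link between promoter sequence and that order was not tested. The 3 highest members of each list are shown as the 250 bases before the transcription start, from RefSeq on GRCm38.p6, on the strand of the gene, with capitals marking CCAAT and TATAAA on either strand (ATTGG and TTTATA when read on the opposite strand). They are Hmgb2 at chr8:57511593-57511842 (plus strand), Pcna at chr2:132253181-132253430 (minus), Top2a at chr11:99024190-99024439 (minus), Vil1 at chr1:74409134-74409383 (plus), Fabp2 at chr3:122894822-122895071 (plus) and Fabp1 at chr6:71199629-71199878 (plus).
Hmgb2: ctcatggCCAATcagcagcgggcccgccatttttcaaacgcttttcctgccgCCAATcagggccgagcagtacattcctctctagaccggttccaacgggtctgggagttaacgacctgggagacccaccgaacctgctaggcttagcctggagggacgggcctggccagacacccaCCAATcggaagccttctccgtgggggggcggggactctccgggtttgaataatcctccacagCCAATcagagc
Pcna: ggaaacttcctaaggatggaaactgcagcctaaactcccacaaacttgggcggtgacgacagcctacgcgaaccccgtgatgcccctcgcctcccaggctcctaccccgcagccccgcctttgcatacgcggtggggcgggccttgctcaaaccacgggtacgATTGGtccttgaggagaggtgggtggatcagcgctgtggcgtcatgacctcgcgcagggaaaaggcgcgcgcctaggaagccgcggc
Top2a: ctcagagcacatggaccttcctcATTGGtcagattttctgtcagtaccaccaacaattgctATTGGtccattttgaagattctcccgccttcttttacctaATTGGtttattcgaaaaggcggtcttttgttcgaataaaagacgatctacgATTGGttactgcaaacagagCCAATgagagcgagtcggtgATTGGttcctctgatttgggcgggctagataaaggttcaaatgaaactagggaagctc
Vil1: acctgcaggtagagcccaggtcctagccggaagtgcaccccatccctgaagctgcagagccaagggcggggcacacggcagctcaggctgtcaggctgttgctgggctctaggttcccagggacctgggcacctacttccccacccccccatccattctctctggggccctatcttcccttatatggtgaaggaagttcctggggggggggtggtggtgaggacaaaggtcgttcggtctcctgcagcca
Fabp2: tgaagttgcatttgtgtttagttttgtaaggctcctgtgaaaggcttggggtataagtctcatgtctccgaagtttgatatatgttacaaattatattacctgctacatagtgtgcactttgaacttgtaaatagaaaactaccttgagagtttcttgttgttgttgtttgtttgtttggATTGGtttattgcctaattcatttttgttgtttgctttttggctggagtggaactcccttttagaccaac
Fabp1: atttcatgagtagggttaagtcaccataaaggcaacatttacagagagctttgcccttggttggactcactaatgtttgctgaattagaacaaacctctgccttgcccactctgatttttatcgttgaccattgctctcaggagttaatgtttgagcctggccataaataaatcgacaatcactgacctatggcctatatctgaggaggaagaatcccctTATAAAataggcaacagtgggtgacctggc
The stretch before Hmgb2 held CCAAT 4 times, that before Top2a 6 times and that before Pcna 1 time, and none of the 3 held TATAAA. Fabp1 had TATAAA beginning 30 bases before its start, Fabp2 had CCAAT 1 time, and Vil1 had neither. The division genes held 14, 22 and 9 CpG dinucleotides in these stretches and the enterocyte genes 5, 1 and 2.

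The same was counted over windows of 300 bases, from 250 before to 50 after the start. Of 18 division genes with a window (of 22), 16 held CCAAT on either strand (88.9%), against 38.3% of all 20428 windows, and none held TATAAA, against 13.2%. Birc5 and Tyms lacked CCAAT. Of 29 enterocyte genes with a window (of 34), 7 held CCAAT (24.1%) and 10 held TATAAA (34.5%), Sis, Alpi and Rbp2 among the latter. These counts take TATAAA anywhere in the window. On the strand of the gene, 20 to 40 bases before the start, 3 of the 29 held it (10.3%), against 2.55% of all windows. The median window had 24.5 CpG among division genes, 4 among enterocyte genes and 11 over all. The windows of all genes are a mixed background: 6911 of them belong to genes listed at 0, with a median of 3 CpG and TATAAA in 22.1%. The 5207 windows of genes between 10 and 100 FPKM had a median of 22 CpG, close to the division genes, CCAAT in 38.8% and TATAAA in 6.09%, although fewer than 80% of the rows in either class had a window. Of 18 hormone genes, all with a window, 4 held CCAAT and 5 TATAAA, with a median of 8.5 CpG. A match is a description of letters and not of a bound site. The check was void for the stem, Paneth and goblet cell lists and for the genes whose mean reached 1 FPKM, since fewer than 80% of each had a window.

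The spread between libraries set how finely levels can be read. The coefficient of variation (CV, SD over mean of the 3 libraries) had a median of 6.82% over genes whose mean reached 1 FPKM, against 2.89% from counting fragments alone. It was 16.7% between 1 and 3 FPKM, 9.18% between 3 and 10, and between 4.88% and 6.35% in each class above 30. The highest library was less than 1.5-fold above the lowest for 91.3% of genes and less than 2-fold for 97.1%. Differences of a few percent between libraries for single genes are within this range.

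The genes with the highest CVs among those whose mean reached 10 FPKM included protein-coding genes and pseudogenes. Sumo2, a ubiquitin-like modifier, read 16.7, 17.1 and 133 FPKM, and the glycolytic enzyme Gapdh 24.5, 36.6 and 190, both highest in replicate 3. The complex IV subunit mt-Co2 read 134, 363 and 123 and the methionine adenosyltransferase Mat2a 8.57, 35.2 and 22.8, both highest in replicate 2, as were the pseudogenes Gm8325 (10.8, 33.1 and 11.2) and Rps27a-ps2 (28.9, 68.0 and 25.9). Gapdh, a common reference gene, had the next highest CV after Sumo2 at 110%, while Ppia, another, stood at 1020, 1027 and 1029 FPKM. Of the 40 highest CVs 11 belonged to processed pseudogenes, which made up 3.64% of the genes ranked. Genes with many processed copies, Sumo2 and Gapdh among them, can share reads with those copies, and no source used here says how such reads were counted.

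At the other end, the autophagy and membrane-curving gene Sh3glb1 read 34.3 FPKM in each library and Pcnx3 51.4, 51.4 and 51.4, followed by Smyd2, Rwdd4a, the nuclear import gene Kpna4, Ech1, Rnaseh2b, the survival gene Bcl2l1, Dhodh and Dars. Their CVs, at or under 0.193%, lay below what counting alone gives for the same genes, so the closeness of these 10 is among the extremes of a ranking of 8077 genes. All 18 reference genes were present, and their range ran from Tbp (14.3 FPKM) to Eef1a1. Among housekeeping genes outside the lists, Ndufs3, a subunit of complex I, was listed at 0 in every library, so that a listed 0 does not by itself show that a gene is silent.

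**Figure D5:**
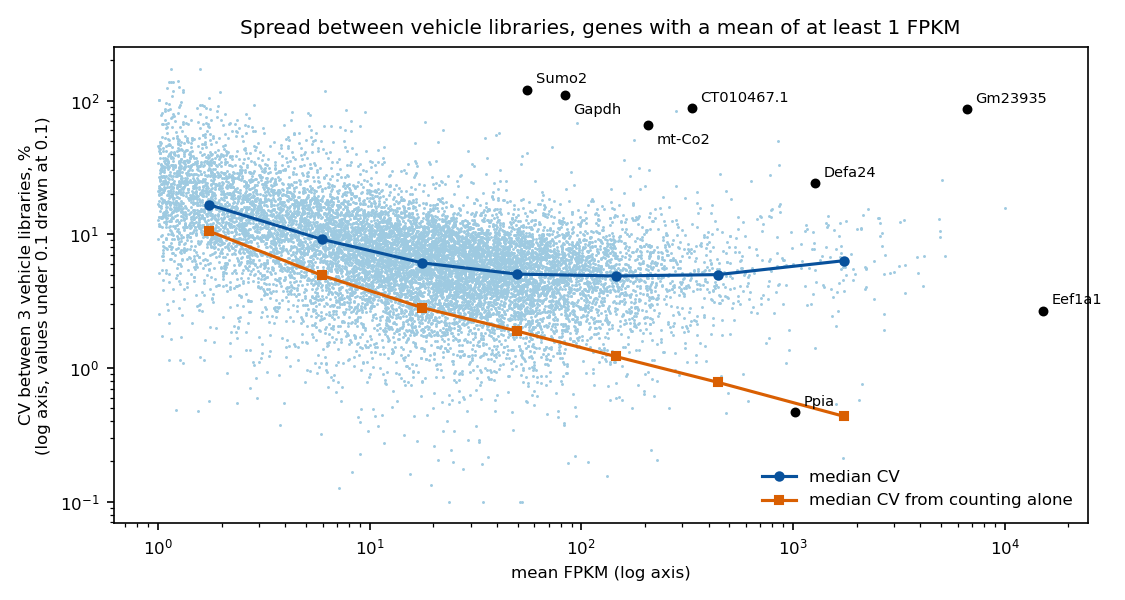
CV between the 3 vehicle libraries in percent against mean FPKM (both log axes) for the 12734 rows with a mean of at least 1 FPKM, with the median per class of mean (blue) and the median that counting alone gives (orange). The median falls from 16.7% to 4.88% between 100 and 300 FPKM, is 6.35% at or above 1000 and stays above counting in every class. Sumo2, Gapdh, mt-Co2, Gm23935 and CT010467.1 lie far above the median.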

How the data were processed

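The authors deposited 1 table of values per library with no unit named. They were taken as FPKM, since a deposited value times the mean transcript length of the gene in GENCODE M21 was close to a whole number of steps of a size set by the library (within 0.1 for 96.3% of values under 100 fragments), and that step gave the depth. Per the submitters' processing notes, the tools were featureCounts 1.5.0-p3, HISAT2 2.0.5 and StringTie 1.3.3b, with no roles given. Not given in the sources used here were the authors' genome build, annotation and use of strand. Of 53953 rows, 53465 carried an Ensembl identifier, 53274 matched a symbol and 488 were unannotated models, which held 0.102% to 0.114% of FPKM.

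Only the 3 vehicle libraries were used, as deposited, and with 1 group there was no test. Means, SDs, ranks, shares and counts of members were computed with pandas 2.3.3 and numpy 2.4.6 in Python 3.11.15, drawn with matplotlib 3.10.9, and checked on simulated data. The counting CV came from recovered fragments. Promoter windows came from RefSeq (GRCm38.p6), the first listed of a gene, for 20428 genes. Protein features were not used here, and some genes that the rule names are not reported. Members and lists were chosen with earlier results of these data known. Named genes are drawn from the 30 highest, the 10 highest and lowest CVs at a mean of at least 10 FPKM, the first 3 and 4 highest of each list, those of at least 5 FPKM on lists of regions and other cell types, and the 3 highest of each family. Chosen after their values were seen were Adh6a, Aldoa, Arg1, Birc5, Ccl20, Cenpf, Ciita, Cubn, Egln3, Eno1, Fga, Fgb, Fgf15, Gal, Grem1, Gsdmc4, Insl5, Isx, Lgals2, Lgals4, Mcm2, Muc5ac, Ndrg1, Ndufs3, Neurog3, Nlrc4, Nog, Pdx1, Pfkfb3, Pigr, Prdm1, Pyy, Retnlb, Rspo1, Rspo2, Slc15a1, Slc16a3, Slc51b, Sox2, Sst, Tlr4, Tlr5, Tnfrsf19, Tyms and Vip. Settings tried were leaving out each library, TPM and median-of-ratios scaling, other minimums, and medians in place of means.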

Additional observations from a re-analysis of the deposited data

How the results depend on the processing

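The values describe 3 libraries, so an SD rests on few points. No paired analysis was possible because only 1 group is described and no test was made. Leaving mitochondrially encoded genes out of the total lowered the share of the 10, 100 and 1000 highest genes to 7.64%, 28.8% and 61.1%, and counting fragments in place of FPKM gave 6.56%, 21.4% and 51.7%. A minimum of 5 FPKM left 1 gene present on the lists of other cell types and 11 on those of other organs. The median CV was 6.25% as the SD of log2(FPKM + 1), 18.7% with no minimum level and 5.47% at a mean of at least 10 FPKM. Chosen after seeing the data, protein-coding genes only gave 6.23%. It was 5.27% to 6.22% with 1 library left out. Of 38 single lists, 17 moved by over 1.5 times in members present at a minimum of 5 FPKM, 3 at 0.5 FPKM, 1 at a mean of at least 1 and 1 without replicate 3. Rescaling to TPM moved none, and the order of libraries in the secretory, enterocyte and division lists stayed within 1.5 times in count under TPM and, chosen after seeing the data, under median-of-ratios scaling.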

Other observations

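A list of 26 genes of the hypoxia response and glycolysis was chosen after the values were seen, so its counts are a description. Of these, 24 were highest in replicate 2, 1 in replicate 1 and 1 in replicate 3. The lactate exporter Slc16a3 read 43.4, 71.8 and 40.3 FPKM in replicates 1, 2 and 3, the stress-responsive Ndrg1 246, 355 and 240 and the prolyl hydroxylase Egln3 14.8, 23.0 and 12.1. The glycolytic regulator Pfkfb3 read 16.2, 24.4 and 8.58, the aldolase Aldoa 678, 888 and 751 and the enolase Eno1 745, 1002 and 868. Gapdh, a glycolytic enzyme outside that list, was highest in replicate 3.

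Of the long noncoding RNAs on the list of structural RNAs, Gas5 was at 431, 376 and 371 FPKM, the nuclear Malat1 at 376, 409 and 270 and Neat1 at 37.6, 40.5 and 28.8. Rn7sk, the RNA that restrains elongation by RNA polymerase II, read 40.9, 32.1 and 20.7. All 5 members of that list with a mean of at least 1 FPKM were lowest in replicate 3.

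By chromosome, 31.9% of the 948 protein-coding genes of the X chromosome and 5 of 183 of the Y chromosome were present, against 48.6% of all protein-coding genes.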
